A study of Rattus norvegicus with 3 samples.

Results

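Expression of 9 genes of oligodendrocytes and of the myelin they make, Mbp, Mobp, Cldn11, Mal, Mog, Cnp, Mag, Ugt8 and Sox10, was examined in rat cerebellar cortex taken 2 days after occlusion of the middle cerebral artery (MCAO). The genes were chosen by name. Each probe other than control probes was taken if its accession belongs to one of these symbols in the rat RefSeq table. This gave 9 of the 38973 genes told apart on the array, of which 16648 carry a symbol, with 16 probes at 52 spots.

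The rats were male Wistar rats aged 9 weeks. Under sevoflurane with nitrous oxide and oxygen, the MCAO group had a filament passed to the origin of the right middle cerebral artery and withdrawn after a transient occlusion. In the control group, a sham operation exposed the right common carotid artery without opening it. The contralateral sample was the left cerebellar cortex and the ipsilateral sample the right cerebellar cortex of the MCAO group, and the control sample was left cerebellar cortex from the control group. Tissue from 4 rats was combined into each sample, both MCAO samples came from the same 4 rats, and each sample was read on 1 array. With a single array per group nothing could be tested, and the spread between rats is not known. The control array holds the left side only, so for the ipsilateral sample the side and the operation cannot be told apart.

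Oligodendrocytes wrap axons in many turns of membrane, and the myelin sheath they form insulates the axon and lets impulses travel fast. The sheath is built from a few abundant membrane proteins and from lipids rich in galactose, and the programme is switched on by transcription factors such as Sox10. In the cerebellum, myelin is dense in the white matter core of each folium and thinner in the granular layer, while the molecular layer holds little.

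Levels are log2 signals of the scanner software, scaled so that all 3 arrays share the same 75th percentile. The error of a log2 ratio is the error that the scanner software gives for each spot, carried over to the ratio, and is about 0.20 for each of the 9 genes. It covers the reading of the spots and not the variation between rats or hybridisations. Of 58717 spots that are not controls, 42470 on the contralateral, 43028 on the ipsilateral and 43283 on the control array were well above background, and 0 were saturated. All 16 probes of the 9 genes were well above background on all 3 arrays.

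None of the 9 genes had a log2 ratio above 1 or below -1 in any comparison on the main scaling. Among all 38973 genes, 4.70% were above 1 and 6.48% below -1 in the contralateral sample against control, 13.4% and 3.14% in the ipsilateral sample against control, and 1.85% and 13.4% between the contralateral and ipsilateral samples. Many of those genes were close to background. The 9 genes belong to 22090 genes whose probes all stood well above background on each of the 3 arrays, and among these the shares above 1 and below -1 were 1.41% and 0.856% for contralateral to control, 3.10% and 0.801% for ipsilateral to control, and 0.217% and 1.54% between the sides. These splits depend on the scaling. Genes above 1 made up 62.3% of those 22090 past either limit on the contralateral side, 40.1% with no scaling and 50.7% with spike-in scaling. On the ipsilateral side they made up 79.5%, against 10.5% with no scaling, 47.6% with spike-in scaling and 64.5% with quantile normalization. Between the sides they made up 12.3%, against 59.6%, 29.5% and 40.9% in the same order. Of those among all 38973 genes that were past either limit, the share above 1 was 42.1% and with no scaling 31.3% for contralateral to control, 81.0% and 43.9% for ipsilateral to control, and 12.2% and 29.0% between the sides. With quantile normalization it was 51.1% on the contralateral side, the larger share, 54.1% on the ipsilateral side and 46.1% between the sides, and with spike-in scaling it was 67.0% on the ipsilateral side.

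The 9 genes lay on both sides of the control group. Ugt8, Cnp and Mog were lower than in the control group by more than the scanner error on both sides, and Mobp was higher by more than that error, except that the ipsilateral ratio of Mobp was below 0 with no scaling and with spike-in scaling. The contralateral ratio of Mobp was within the error at those settings, at 0.12 and 0.20, and its ipsilateral ratio was within it in the deposited values. The other 5 genes lay within the scanner error of the control group on the main scaling. With other settings some of them passed it, such as Mag at -0.21 and -0.25 in the deposited values, Sox10 at -0.23 on the contralateral side with spike-in scaling and Mal at 0.23 on that side with median scaling. On the ipsilateral side all 5 were below it with no scaling. On the main scaling, on each side 3 of 9 genes were below the error and 1 above it, while of the 22090 genes 17.1% were below and 15.6% above on the contralateral side, and for the ipsilateral side these shares were 14.9% and 21.8%. Whether lower values come from fewer oligodendrocytes or from less RNA in each of them cannot be told apart in these tissue samples.

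**Figure D1:**
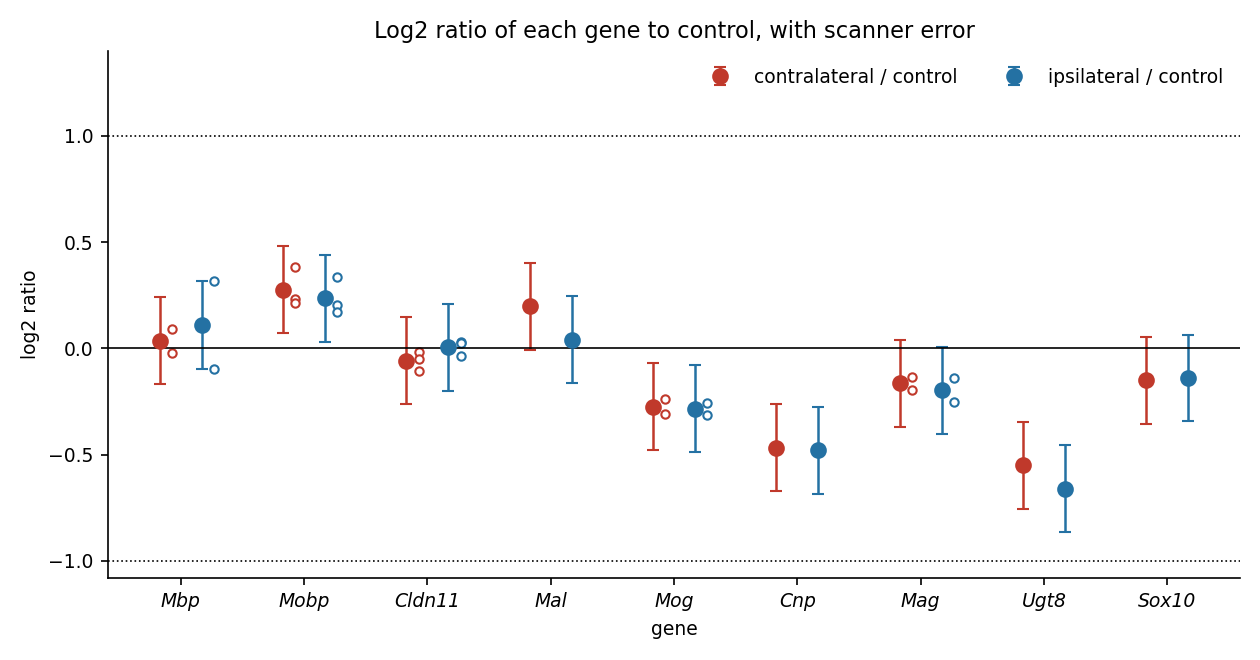
Log2 ratio of each gene to the control array (filled points) on the contralateral and ipsilateral side, with bars of 1 scanner error, small open points for each probe where a gene has several, and dotted lines at 1 and -1. Ugt8, Cnp and Mog lie below 0 by more than their bars on both sides, Mobp lies above 0 on both sides except on the ipsilateral side with no scaling or spike-in scaling, and the remaining bars cross 0 on the main scaling shown.

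The sequences upstream of the genes are shown for those at the ends of the order, Mobp at the top and Cnp and Ugt8 at the bottom. They come from the RefSeq table of the GRCr8 assembly, which holds windows of 250 bases before the start for 7 of the 9 genes, Mog and Sox10 not among them. ACAAAG, a core motif of the SOX family of factors to which Sox10 belongs, was searched on both strands, where it reads CTTTGT on the other strand. It occurs in a window of 4 of the 7 genes, for Mbp only in a window inside the gene, and in 16.3% of all 33469 windows. A match is a run of letters and not a site. The Mobp window, chr8:128746982-128747231 on the plus strand, holds 8 matches, all on the strand opposite to the gene, and 2 of the 33469 windows hold as many. Of its 250 bases, 115 lie inside the annotated span of the gene, and the 135 before it, with 7 of the matches, are shown with matches in capitals. The Cnp window, chr10:86011254-86011503 on the plus strand, holds 1 match on the strand of the gene. The Ugt8 window, chr2:217007168-217007417 on the minus strand, holds 0 matches, and 81.2% of its bases are G or C, against a median of 51.2% over all windows and 41.6% in the Mobp window.
Mobp: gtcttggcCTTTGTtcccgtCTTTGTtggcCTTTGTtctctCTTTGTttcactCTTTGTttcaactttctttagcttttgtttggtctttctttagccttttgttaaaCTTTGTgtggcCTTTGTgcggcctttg
Cnp: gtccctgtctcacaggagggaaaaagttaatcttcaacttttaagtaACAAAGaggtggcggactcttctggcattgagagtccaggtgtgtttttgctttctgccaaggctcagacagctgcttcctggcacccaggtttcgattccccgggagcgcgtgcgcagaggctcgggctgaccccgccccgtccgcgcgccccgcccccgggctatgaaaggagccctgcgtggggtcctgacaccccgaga
Ugt8: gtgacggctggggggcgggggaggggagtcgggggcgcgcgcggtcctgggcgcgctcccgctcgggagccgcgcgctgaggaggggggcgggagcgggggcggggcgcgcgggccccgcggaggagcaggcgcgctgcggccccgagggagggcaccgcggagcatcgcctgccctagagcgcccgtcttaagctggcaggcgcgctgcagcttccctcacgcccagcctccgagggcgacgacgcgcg
A content of G and C as high as that of Ugt8 occurs in 0.759% of the windows. Among the other members, Mag, with 89 bases inside its gene span, holds 1 match. Of the Mbp windows, the one wholly inside the gene span holds 1 and the other 0, and Cldn11 and Mal hold 0.

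The proteins of compact myelin come first. Mbp encodes myelin basic protein, which holds the cytoplasmic faces of the membrane together. Its mean log2 signal over 2 probes was 12.31 in the contralateral, 12.38 in the ipsilateral and 12.27 in the control sample. The ratios to control were 0.036 and 0.11, both within the scanner error, and both went below 0 with no scaling, spike-in scaling and quantile normalization, the contralateral one also in the deposited values. The probes of Mbp, which belong to different RefSeq transcripts of the gene, did not agree in sign. Probe A_64_P017160 read 6.89 (contralateral), 6.82 (ipsilateral) and 6.91 (control), and probe A_64_P017163 read 17.72, 17.95 and 17.63. The first gave ratios of -0.020 and -0.097, and the second gave 0.092 and 0.32. For Mbp, the value therefore depends on the probe, and the ipsilateral ratio of the second probe, past its error of 0.20, was not shared by the first.

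Mobp encodes a small protein of the cytoplasmic side of compact myelin. Its log2 signal was 11.22 in the contralateral, 11.18 in the ipsilateral and 10.94 in the control sample, so both MCAO samples lay above the control. The contralateral ratio was 0.28 with an error of 0.20, or 1.21-fold. The ipsilateral ratio was 0.24, or 1.18-fold, and went to -0.30 with no scaling and -0.018 with spike-in scaling. On the main scaling all 3 probes of Mobp lay above 0 on both sides, with contralateral ratios of 0.38, 0.23 and 0.21 and ipsilateral ratios of 0.33, 0.20 and 0.17. With no scaling all 3 ipsilateral values went below 0, and with spike-in scaling only that of the brightest probe stayed above 0. The brightest, A_44_P1082019, is printed at 10 spots, whose contralateral ratios ran from 0.32 to 0.45 and ipsilateral ratios from 0.28 to 0.40. On the main scaling, the sign was the same at every one of these spots.

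Cldn11 encodes the claudin of the tight junctions that seal the layers of the sheath, and Mal encodes a membrane proteolipid that takes part in sorting proteins to myelin. The log2 signal of Cldn11 was 12.26 in the contralateral, 12.33 in the ipsilateral and 12.32 in the control sample. Its ratios were -0.058 and 0.0055, the latter below 0 with no scaling, spike-in scaling, quantile normalization and in the deposited values. With 3 probes at 21 spots, Cldn11 has more spots than any other of the 9 genes, and its probe ratios ran only from -0.11 to -0.016 on the contralateral side and from -0.039 to 0.029 on the ipsilateral side. Mal had a single probe at 1 spot, with a log2 signal of 9.04, 8.88 and 8.84 in the contralateral, ipsilateral and control sample. Its contralateral ratio of 0.20 was just inside the error, and its ipsilateral ratio of 0.039 went below 0 with no scaling, spike-in scaling and in the deposited values. On the main scaling, neither gene differed from the control group by more than its error.

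Mog, Mag and Cnp encode proteins at the surfaces and in the uncompacted parts of the sheath. Mog, on the outermost face of the sheath, had a log2 signal of 9.52 in the contralateral, 9.51 in the ipsilateral and 9.80 in the control sample. The ratios were -0.27 and -0.28, or 0.827-fold and 0.821-fold, and its probes gave -0.31 and -0.24 on the contralateral and -0.31 and -0.26 on the ipsilateral side. Both MCAO samples were thus below the control with both probes on the main scaling, and the mean of the gene was so in all 11 alternatives.

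Cnp encodes a phosphodiesterase that keeps cytoplasmic channels in the sheath open. Its single spot read 10.24 in the contralateral, 10.23 in the ipsilateral and 10.70 in the control sample. The ratios were -0.47 and -0.48, or 0.723-fold and 0.717-fold, which are -2.29 and -2.35 scanner errors. Cnp was lower on both sides in all 11 alternatives, but with 1 spot it has no second probe to compare.

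Mag, the adhesion protein on the innermost face that touches the axon, had a log2 signal of 11.19 in the contralateral, 11.16 in the ipsilateral and 11.36 in the control sample. Its ratios of -0.16 and -0.20 were just inside the error. The probe printed at 10 spots, A_64_P019613, gave -0.19 on the contralateral side, where the spots ran from -0.24 to -0.14, and -0.14 on the ipsilateral side, where they ran from -0.23 to -0.063. The other probe gave -0.14 and -0.25. Both probes and all 10 spots were below 0 on both sides, and on the ipsilateral side the probe with 1 spot was past its error of 0.20.

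Ugt8 encodes the transferase that adds galactose to ceramide, the step that makes the galactolipids of myelin. Its log2 signal was 11.98 in the contralateral, 11.87 in the ipsilateral and 12.53 in the control sample. The ratios of -0.55 and -0.66, or 0.683-fold and 0.633-fold, are -2.70 and -3.23 scanner errors. These were the lowest ratios of the 9 genes on both sides, in the main scaling and in all 11 alternatives, and they rest on 1 probe at 1 spot.

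Sox10, the transcription factor of the lineage, had a log2 signal of 9.992 in the contralateral, 10.003 in the ipsilateral and 10.142 in the control sample. Its ratios were -0.15 and -0.14, inside the error of 0.20 and below 0 in all 11 alternatives. In the order of the ratios, Sox10 lay between Mag and Cldn11 on both sides.

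**Figure D2:**
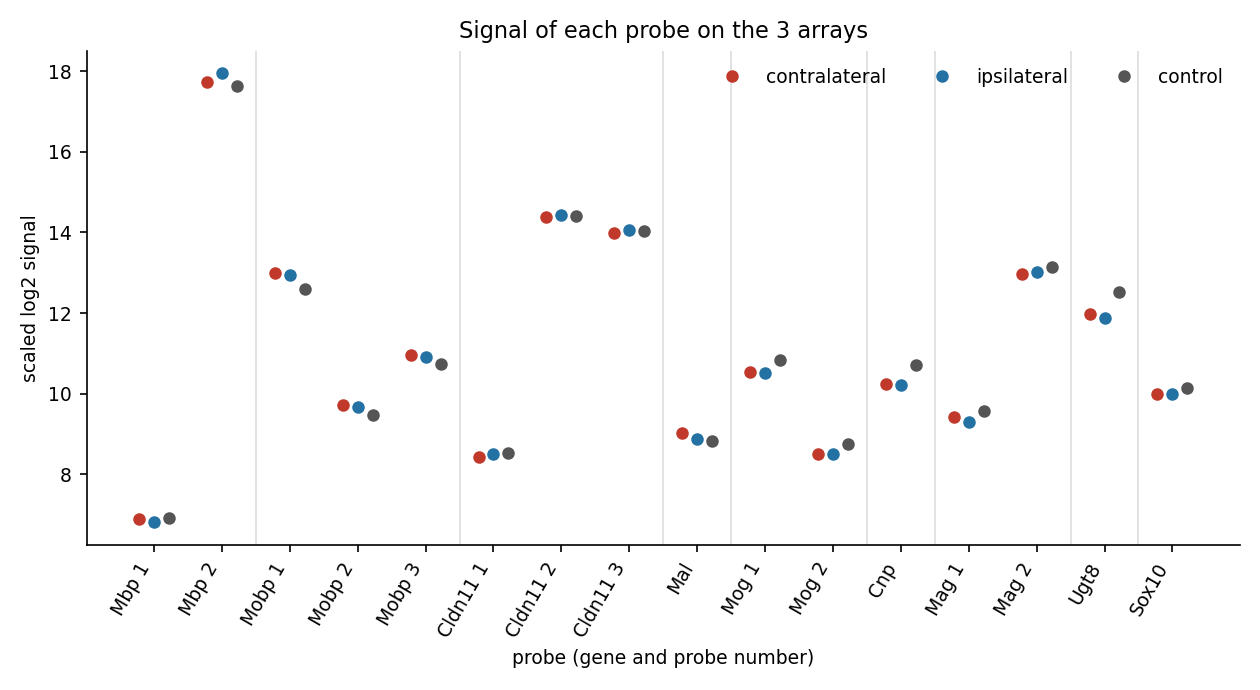
Scaled log2 signal of each of the 16 probes of the 9 genes on the contralateral, ipsilateral and control array, with probes of a gene numbered in order of their probe names. The contralateral and ipsilateral points lie close together for nearly every probe. The control point stands above them for Cnp and Ugt8 and below them for the 3 Mobp probes. With no scaling the ipsilateral points of all 3 Mobp probes lie below the control. With spike-in scaling those of all Mobp probes but the brightest do.

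The 9 genes had a median ratio of -0.15 (contralateral) and -0.14 (ipsilateral), both below 0 in all 11 alternatives, while the medians of the 22090 genes well above background were 0.012 and 0.030. Below 0 lay 6 of 9 genes on the contralateral side, where 47.6% of those 22090 genes did, and 5 of 9 on the ipsilateral side, where 44.1% did. With no scaling or spike-in scaling, all 9 lay below 0 on the ipsilateral side, where 90.9% and 80.6% of the 22090 genes did. With no scaling, the median of the 22090 genes shifted by -0.15 (contralateral) and -0.53 (ipsilateral), and -0.080 and -0.25 with spike-in scaling. Relative to the median of all these genes, the median of the 9 was -0.16 (contralateral) and -0.17 (ipsilateral), and over the alternatives it ran from -0.23 to -0.15 and from -0.23 to -0.14. The ratios of both sides share the control array, so they are given side by side and no likeness between them was computed.

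The single genes lay apart from most others to different degrees. Of the 22090 genes, 8.87% lay as far from 0 as Ugt8 (contralateral) and 9.14% (ipsilateral). For Cnp these shares were 11.8% and 15.2%, for Mog 25.8% and 28.7%, and for Mobp 25.5% and 34.5%. Differences of these sizes were thus found in many genes on these arrays.

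**Figure D3:**
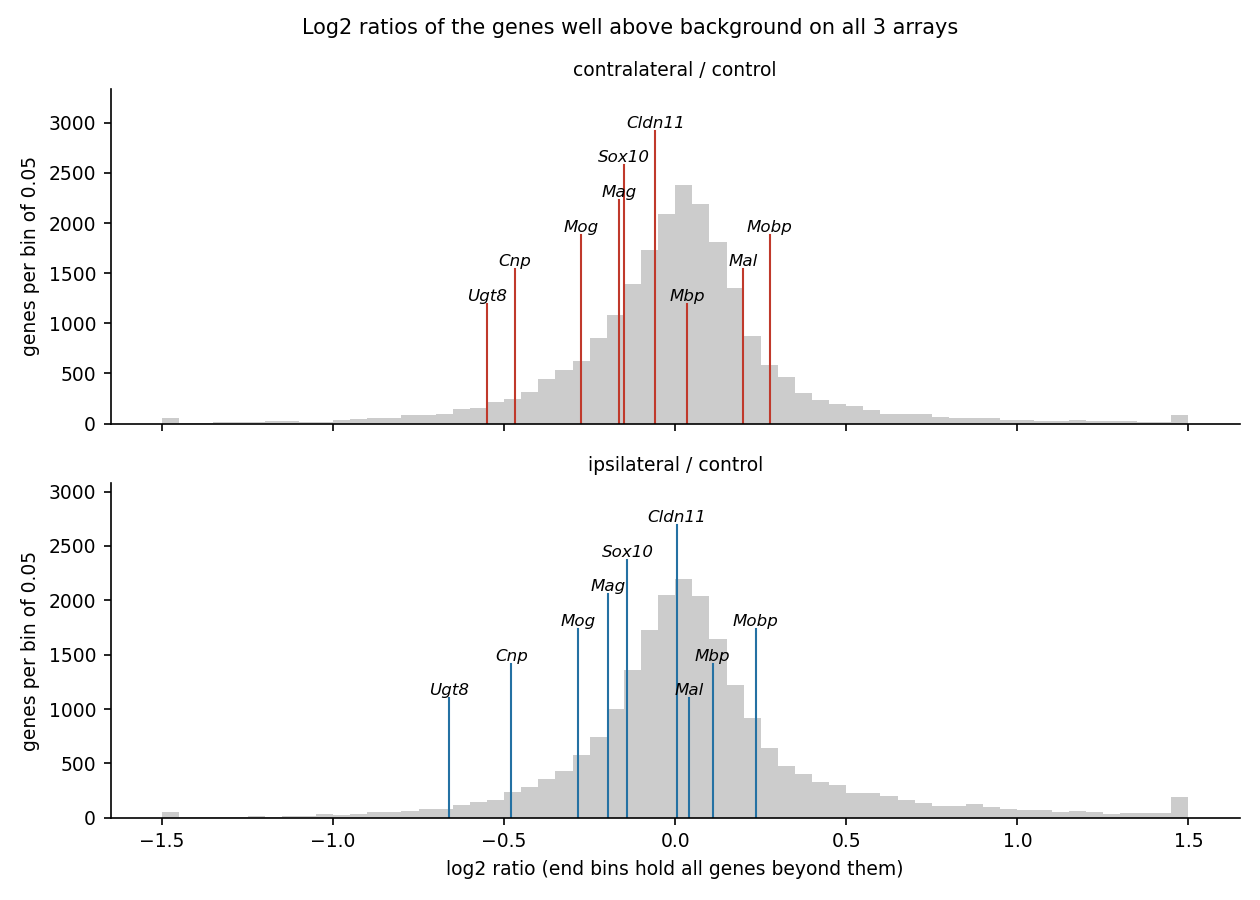
Number of genes read well above background on every array, in each log2 ratio bin of 0.05 (grey bars, 22090 genes), with a coloured line at the ratio of each of the 9 genes, for the contralateral and the ipsilateral side against control. Ugt8 and Cnp lie in the left flank on both sides, and Mobp lies to the right of the peak, its ipsilateral line moving below 0 with no scaling or spike-in scaling while the bars move with it.

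A factor common to an array shifts all 9 genes alike and leaves the differences among them as they are. From Ugt8 to Mobp, the lowest and the highest ratio, the difference was 0.83 (contralateral) and 0.90 (ipsilateral), a pair chosen after the values were seen. In all 11 alternatives Ugt8 was the lowest, Cnp the next and Mog the next after that on both sides. Mobp was the highest on the contralateral side in all 11 and on the ipsilateral side in all but the normexp setting, where Mbp was. The SD of the 9 ratios was 0.28 and 0.29, close to the SD of 0.35 and 0.40 over the 22090 genes.

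Between the contralateral and ipsilateral samples, a comparison that does not use the control array, none of the 9 genes differed by more than the scanner error on the main scaling. With no scaling all 9 did, from 0.31 for Mbp to 0.54 for Mal, with spike-in scaling Mal, Ugt8, Mobp and Mag did, and with the brightest probe Mbp did, at -0.22. On the main scaling of that comparison 6.53% of the 22090 genes were above the error and 16.2% below it. The ratios of the contralateral to the ipsilateral sample ran from -0.073 for Mbp to 0.16 for Mal, with an SD of 0.074 and a median of 0.011. Below 0 lay 3 of the 9 genes and 53.0% of the 22090, while with no scaling and with spike-in scaling 0 of the 9 did, beside 9.87% and 20.6% of the 22090. With normexp 5 of the 9 did, beside 69.9% of the 22090, and the median of the 9 was below 0, at -0.023. No scaling and spike-in scaling moved the median of the 22090 genes by 0.38 and 0.17, and normexp moved it by -0.059. Ugt8 was at 0.11, Mobp at 0.041, Mog at 0.010 and Cnp at 0.011, the last 2 going below 0 in the normexp setting. Whether these 4 genes differ between the sides thus depends on the scaling, and at no scaling they were at 0.49, 0.42, 0.39 and 0.39 in the same order.

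Beside the 9 genes, a wider list of 63 other genes of the lineage and of myelin was read, 56 of them on the array and 53 well above background. On the main scaling its summed linear signal was 146499 in the contralateral, 149141 in the ipsilateral and 161540 in the control sample.

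In the wider list, 39 of 53 genes (73.6%) lay below 0 (contralateral) and 36 (67.9%) (ipsilateral). By more than the scanner error, 24 genes (45.3%) were lower and 3 higher on the contralateral side, and 22 (41.5%) lower and 2 higher on the ipsilateral side. Of the 22090 genes, 17.1% were lower and 15.6% higher by that measure on the contralateral side, and 14.9% and 21.8% on the ipsilateral, shares that also stand beside the counts of each role. None passed 1 or -1. The medians were -0.18 and -0.11, and relative to the median of the 22090 genes they stayed between -0.20 and -0.14 on the contralateral and between -0.15 and -0.13 on the ipsilateral side in the main scaling and the alternatives. The list was chosen with earlier results known and was not tested.

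By role, the other lipid enzymes resembled Ugt8 in direction on the contralateral side, where all 7 were below 0 with a median of -0.25 and 4 of 7 by more than the error. Fa2h, which hydroxylates the fatty acids of galactolipids, read 10.59, 10.64 and 11.06 in the contralateral, ipsilateral and control sample, with ratios of -0.47 and -0.42. Gal3st1, which sulfates the lipid that Ugt8 starts, read 8.22, 8.23 and 8.67, with ratios of -0.45 and -0.43. Both lay near Cnp in size. Arsa, which removes the sulfate, was at -0.011 and 0.0089, values whose sign changes with the scaling. Elovl7 was at -0.25 and 0.21, within its error of 0.26, and the contralateral value went above 0 with normexp and the ipsilateral one below 0 with no scaling, spike-in scaling and quantile normalization. On the ipsilateral side the median of the 7 was -0.18, with 5 of 7 below 0 and 3 of 7 by more than the error.

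Among 8 other genes listed with the myelin membrane, not all of which encode membrane proteins, the median was -0.18 (contralateral) and -0.20 (ipsilateral). Pllp, a proteolipid of the same family as Mal, read 10.64, 10.59 and 11.14 in the contralateral, ipsilateral and control sample, and its ratios were -0.50 and -0.55. At the other end, Cryab, a small heat shock protein abundant in oligodendrocytes, was at 0.27 and 0.24, the ipsilateral value going below 0 with no scaling and spike-in scaling. Below 0 were 6 of 8 genes on the contralateral and 7 of 8 on the ipsilateral side, and on each side 4 were below the scanner error and 1 above it.

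Of 8 further genes of axon contact and the paranode, 4 were below 0 on each side, and the median was 0.00080 (contralateral) and -0.038 (ipsilateral), with a sign that changes with the processing. Omg was at 0.28 and 0.20, the ipsilateral value below 0 with no scaling and spike-in scaling, and Lpar1 was at -0.29 and -0.33.

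The genes of glial gap junctions had medians of -0.52 (contralateral) and -0.35 (ipsilateral), below 0 in all 11 alternatives. Gjc3, a connexin gene, was at 0.30 and -0.31, the latter above 0 with normexp.

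Transcription factors beside Sox10 had a median over 6 genes of -0.064 (contralateral) and 0.0025 (ipsilateral), the latter below 0 with no scaling, spike-in scaling, quantile normalization and in the deposited values. Olig2 was at 0.16 and 0.12, the latter below 0 with no scaling and spike-in scaling. Nkx2-2 was at -0.24, past its error of 0.23, and -0.14, the latter above 0 with normexp. Sox8, a close relative of Sox10, was at -0.18 and 0.33, and the ipsilateral value, past its error of 0.20, went below 0 with no scaling.

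Genes of precursors and of early stages had a median over 6 genes of -0.16 (contralateral) and 0.070 (ipsilateral), the latter below 0 with no scaling and spike-in scaling. Pdgfra, the receptor that marks precursors, was at 0.043 and 0.14, within the error, with signs that change with no scaling and spike-in scaling. Gpr17, of cells about to mature, was at -0.22 and 0.19, the latter below 0 with no scaling and spike-in scaling. Bcas1, of early myelinating cells, was at -0.33 and -0.46. The 15 other mature genes had medians of -0.30 and -0.23, with 9 of 15 on the contralateral and 8 of 15 on the ipsilateral side lower by more than the error. Tf, transferrin, read 12.96, 12.91 and 13.39 in the contralateral, ipsilateral and control sample, with ratios of -0.43 and -0.47. Enpp2, which the choroid plexus also expresses, was at -0.60 and -0.064. Ndrg1 was at 0.11 and 0.092 and S1pr5 at 0.013 and 0.14, all within the error and below 0 with no scaling.

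Markers of other cells that such tissue can hold were read on the same arrays. Of 7 Schwann cell genes, which share the myelin programme outside the brain, 1 was well above background, and Prx, Pmp2, Ncmap, Dhh and Egr2 were not, although 1 of the 2 Egr2 probes was. Gldn, the 1 that was, summed to 131, 115 and 121 in the contralateral, ipsilateral and control sample, with ratios of 0.11, below 0 with no scaling, and -0.079, above 0 with normexp. All 9 genes were well above background in the same samples.

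Astrocyte and Bergmann glia genes, 11 of 11 well above background, had medians of -0.072 (contralateral) and -0.0018 (ipsilateral), with signs that change with the processing, and sums of 53454, 54886 and 62836. Aqp4, the highest in signal, was at -0.55 and -0.45, Gfap at -0.73 and -0.66, and Gjb6 at 0.71 and 0.72. Ratios of the size of Ugt8 were thus found in another glial type as well. The part of these cells in the ratios of the 9 genes was not tested.

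Microglia genes, 10 of 10 well above background, had medians of 0.24 (contralateral) and 0.31 (ipsilateral), the latter below 0 with no scaling, and sums of 14137, 17743 and 10426. C1qb, the highest in signal, was at 0.62 and 0.98, Cx3cr1 at 0.78 and 1.27, and Aif1 at -0.29 and -0.097. The part of microglia in the ratios of the 9 genes was not tested.

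Granule cell genes, 10 of 10, had medians of 0.013, with a sign that changes with the scaling, and -0.035, and sums of 84829, 86501 and 87634. Calb2, the highest in signal, was at -0.30 and -0.085, and Zic2 at 0.45 and 0.28, the latter below 0 with no scaling. Purkinje cell genes, 6 of 6, had medians of 0.14 and 0.089, the former below 0 with no scaling and the latter with no scaling and spike-in scaling, and sums of 172960, 170367 and 158638. Itpr1, the highest in signal, was at 0.22 and 0.16, the latter below 0 with no scaling and spike-in scaling, and Pcp2 was at -0.036 and -0.039. The listed genes of granule and Purkinje cells were thus well above background in all 3 samples. The part of these cells in the ratios of the 9 genes was not tested.

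Tissue boundaries were read with genes of the brainstem and deep nuclei and of the choroid plexus. Of 11 brainstem and deep nuclei genes, 9 were on the array and 5 well above background, Chat, Slc5a7, Hoxa2 and Hoxb3 not among them, although 1 of the 2 Hoxa2 probes was. Their medians were -0.0022 and 0.040, with signs that change with the scaling, and their sums 2569, 2347 and 2598. Nefh, the highest in signal, was at 0.014 and 0.091, and Slc6a5 at 0.12 and 0.13, all 4 values below 0 with no scaling, and Spp1 was at -0.20 and -0.50. Choroid plexus genes, 8 of 11 well above background, had medians of -0.77 and 0.48, the latter below 0 with no scaling, and sums of 10818, 77046 and 34219. Ttr, the highest in signal, was at -1.73 and 1.19, and Slc4a5 at -2.12 and -1.20. The values of Slc4a5 depend on the processing, and the alternatives nearest to 0 put them at -0.55 and -0.16. Otx2 was at -0.025, above 0 with median scaling and with the brightest probe, and 0.30, below 0 with no scaling. On the main scaling the choroid plexus sum was highest in the ipsilateral, next in the control and lowest in the contralateral sample. Of the 9 genes, Cldn11 had the same order, at differences within its error. The part of choroid plexus, brainstem and deep nuclei in the ratios of the 9 genes was not tested.

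Genes outside all these lists with a similar pair of ratios were common. Of 2470 named genes with 2 or more probes, all well above background, 297 lay within 0.1 of the pair of medians of the 9 genes. The 5 closest by Euclidean distance over the pair of ratios were Septin7, Trmt9b, Nfic, Nup58 and Dstn. Septin7 had ratios of -0.15 and -0.14 at a distance of 0.0042, and Dstn, the last of the 5, had -0.14 and -0.14 at 0.0085.

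**Figure D4:**
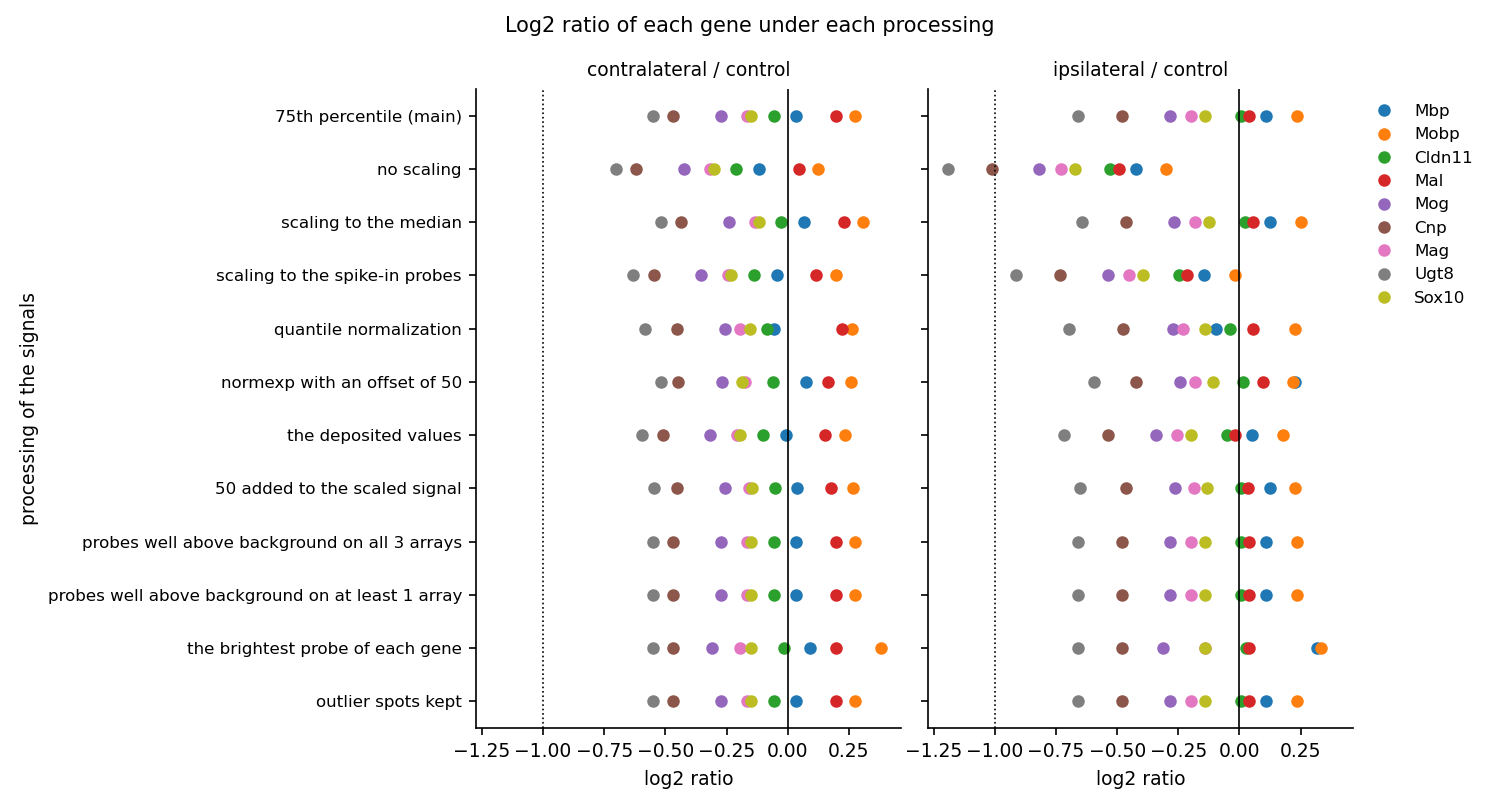
Log2 ratio to control of each of the 9 genes (colours) under the main scaling and the 11 alternatives, on the contralateral (left panel) and the ipsilateral side (right panel), with a dotted line at -1. The order of the genes is kept almost throughout, and on the ipsilateral side the whole set lies below 0 with no scaling and with spike-in scaling, with Ugt8 and Cnp past -1 with no scaling.

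The plot of ratios under each processing shows where the reading of a gene depends on the scaling. Ugt8, Cnp, Mog, Mag and Sox10 were below the control on both sides in all 11 alternatives. Mobp and Mal were above it on the contralateral side in all 11. On the ipsilateral side Mbp, Mobp, Cldn11 and Mal each had an alternative that put them on the other side of 0. No direction against 0 can therefore be given for them there. Relative to the median of the genes well above background, ipsilateral Mobp stayed above in all 11 alternatives, from 0.094 to 0.30. Cldn11 stayed below that median in all 11, from -0.11 to -0.0041. Mbp changed sides of it with quantile normalization and Mal with normexp.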

How the data were processed

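The authors hybridised Cy3-labelled RNA to 1-colour Agilent SurePrint rat arrays and deposited the fluorescence intensity of each spot, quantified and background-subtracted with Agilent Feature Extraction 12.1.0.3. Their value table, used as an alternative, holds the same intensities times 1.12 on the contralateral, 1.45 on the ipsilateral and 1.04 on the control array, with medians of 139.4, 139.6 and 146.9. Here the processed intensity was divided by the 75th percentile of each array (2103, 1614 and 2336 in the same order), placed back on a common scale and taken to log2. The 759 outlier spots, none of them of the 9 genes, were left out, and spots of a probe, then probes of a gene, were averaged. Accessions were named through the RefSeq table of GRCr8, where 17616 of 39957 matched. The files held no mean signal per spot, so normexp (offset 50) used median signals.

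Genes were called beyond a log2 ratio of 1 or -1, as in the study's methods. Beside the 9 genes, genes at the extremes of each role group, the extremes and the brightest gene of each other cell type list, and the 5 nearest genes were named. The members and lists were chosen with earlier results of these data known. As 11 alternatives, the arrays were left unscaled, scaled by median, scaled by 8 spike-in probes, quantile-normalized or treated with normexp; the deposited values were used; a constant of 50 was added; dim probes were filtered in 2 ways; only the brightest probe was taken; or outlier spots were retained. The counting was tested on simulated data. All 3 arrays lay on 1 slide, and their number limits the precision. Software was R 4.3.3 (limma 3.58.1) and Python 3.11.15 (numpy 2.4.6, pandas 2.3.3, matplotlib 3.10.9).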

Additional observations from a re-analysis of the deposited data

Results flagged for a closer look

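Gjc3, a connexin gene, lay above the control group on the contralateral side at a log2 ratio of 0.3008 and below it on the ipsilateral side at -0.3098, the latter above 0 with normexp, with each value past its scanner error. Ttr, the choroid plexus gene of the highest signal, lay on opposite sides of the control group as well, at -1.7339 and 1.1924. There is 1 array per group, and for both genes the difference was not tested. None of the 9 genes lay on opposite sides of the control group by more than its scanner error.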

How the results depend on the processing

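With no scaling, the median ratio of the 9 genes was -0.67 on the ipsilateral side against control and 0.39 between the sides, that of the wider list was -0.65 on the ipsilateral side, and 2 members, Ugt8 and Cnp, were past -1 there, beside 5.17% of the 22090 genes. With spike-in scaling, the ipsilateral medians were -0.39 and -0.37. With normexp, that of the wider list was -0.0037, against -0.11 on the main scaling. Mobp reversed on the ipsilateral side, at -0.30 with no scaling and -0.018 with spike-in scaling. No scaling and spike-in scaling shift all genes by a constant per array. Normexp does not, and with it the ipsilateral difference from Ugt8 to Mobp was 0.81, against 0.90 on the main scaling. Which processing is right was not tested. The contralateral medians stayed below 0 in all 11 alternatives, from -0.30 to -0.12 for the 9 genes and from -0.33 to -0.087 for the wider list.

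Counts of all 38973 genes above 1 and below -1 were 1833 and 2526 on the contralateral side, 72 and 51 with normexp, 89 and 93 with 50 added, 346 and 203 with probes well above background on all 3 arrays (23255 genes left) and 1043 and 1343 on at least 1 (27731 left). On the ipsilateral side they were 5217 and 1223, 2618 and 3352 with no scaling, 3872 and 1903 with spike-in scaling, 2865 and 2434 with quantile normalization, 167 and 24 with normexp, 143 and 80 with 50 added, and 763 and 193 and 2470 and 892 with those filters. Between the sides they were 722 and 5217, 1414 and 3459 with no scaling, 2157 and 2521 with quantile normalization, 7 and 39 with normexp, 43 and 59 with 50 added, and 52 and 376 and 470 and 2283 with the filters. No paired analysis was possible because each group has 1 pooled array. Probes near background limit these counts, and none of the 16 probes of the 9 genes was near it.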
